A study of Mus musculus with 16 samples.

Results

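The 41 genes described here are interferon-stimulated genes, namely genes induced by type I or type II interferon together with transcription factors of the interferon pathway. They were chosen by name, with earlier results of these data known. All 41 were found by symbol among the 55385 genes of the deposited count table. All 41 also passed the low-count filter, which kept 17555 genes for testing. Levels were measured by RNA sequencing of polyadenylated RNA from brain cortex of 16 mice aged 9 months, with 4 mice (2 females and 2 males) in each of 4 groups. The 5xFAD-Dp16 group carried both the 5xFAD transgenes and the Dp16 duplication, the 5xFAD group the transgenes alone, the Dp16 group the duplication alone, and the wild-type (WT) group, C57BL/6J by its label, neither. 5xFAD mice carry human transgenes with familial Alzheimer's disease mutations under the neuronal Thy1 promoter and form amyloid plaques. Overexpression of mutant human proteins in neurons limits it as a model of late-onset disease. In Dp16 mice a long stretch of chromosome 16 is present in an additional copy. Its genes are counterparts of many genes on human chromosome 21, so the line is used to study trisomy 21, although other counterparts lie on other mouse chromosomes and are not duplicated. The labels name separate samples and say nothing of litters, so p-values measure the spread between these samples.

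Type I interferons signal through a receptor made of Ifnar1 and Ifnar2, and interferon gamma through a receptor made of Ifngr1 and Ifngr2. Janus kinases on the receptors phosphorylate Stat proteins, which enter the nucleus, some of them with Irf9, and switch on the genes whose promoters carry an interferon-stimulated response element (ISRE) or a gamma-activated sequence (GAS). In the brain such genes are induced in many cell types, and a subset of microglia near amyloid plaques is known for expressing them. Ifnar1, Ifnar2, Ifngr2 and Il10rb lie in the segment that Dp16 mice carry in an extra copy, so the design asks whether extra receptor copies go with higher interferon-stimulated genes, with or without the amyloid transgenes.

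None of the 41 genes lies in the duplicated segment itself (chr16:75540514-97962622, GRCm38). They are spread over 16 chromosomes, and the 4 on chromosome 16 (Rtp4, Parp9, Parp14 and Dtx3l) lie outside it. Some are neighbours: the 4 Ifit genes lie within 99.3 kb of chromosome 19, Gbp2, Gbp3 and Gbp7 within 107.7 kb of chromosome 3, Parp9, Dtx3l and Parp14 within 139.7 kb of chromosome 16, and Rsad2 and Cmpk2 within 37.1 kb of chromosome 12. Several belong to families of near-identical genes or overlap another gene. These are Ifit3 and Ifit3b, the Gbp, Oas and Ifi200 families, Trim30a, Dtx3l beside Parp9, and Igtp, which overlaps Irgm2 on the same strand. The counting could have split their reads, so the values of these single genes are uncertain.

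The promoters show how far the genes share the known interferon motifs. RefSeq promoter windows (GRCm38.p6, 250 bases before to 50 after the start) were found for 31 of the 41 genes. Where a gene had several windows, a match in any of them counted. The ISRE core, GAAA followed by any 2 bases and GAAA again, was searched on both strands. It occurred for 19 of these 31 genes (61.3%), against 1079 of 27025 genes in the RefSeq table (3.99%). The GAS motif TTCNNNGAA reads the same on both strands and was counted separately from the ISRE core. It occurred for 8 of the 31 genes (25.8%), against 9.55% of all genes in the RefSeq table. A match is a string of letters and not a measured binding site, and a window without one says nothing about the factor.

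The 250 bases before the start are shown for the 4 genes with the smallest p in 5xFAD against WT that had a promoter entry. They lie at chr14:55603735-55603984 (plus strand) for Irf9, chr7:104465194-104465443 (minus strand) for Trim30a, chr7:141266425-141266674 (minus strand) for Irf7 and chr5:92348890-92349139 (minus strand) for Cxcl10. Sequences run 5′ to 3′ on the gene's own strand, and capitals mark matches to the ISRE core or its reverse complement. The windows of Trim30a and Cxcl10 held 1 match each, and those of the transcription factor genes Irf9 and Irf7 held 0.
Irf9: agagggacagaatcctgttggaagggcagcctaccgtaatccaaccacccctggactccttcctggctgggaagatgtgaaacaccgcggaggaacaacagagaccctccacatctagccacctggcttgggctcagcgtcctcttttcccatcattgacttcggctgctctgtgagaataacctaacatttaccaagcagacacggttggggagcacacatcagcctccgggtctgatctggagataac
Trim30a: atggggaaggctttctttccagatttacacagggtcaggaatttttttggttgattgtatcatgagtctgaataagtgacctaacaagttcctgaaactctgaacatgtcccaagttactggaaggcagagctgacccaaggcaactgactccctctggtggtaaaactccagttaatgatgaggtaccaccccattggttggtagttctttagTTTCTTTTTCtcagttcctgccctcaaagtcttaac
Irf7: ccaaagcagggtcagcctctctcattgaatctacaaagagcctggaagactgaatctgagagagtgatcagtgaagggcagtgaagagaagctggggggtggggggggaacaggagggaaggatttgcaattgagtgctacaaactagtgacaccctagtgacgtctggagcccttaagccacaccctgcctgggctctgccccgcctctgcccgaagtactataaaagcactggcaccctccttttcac
Cxcl10: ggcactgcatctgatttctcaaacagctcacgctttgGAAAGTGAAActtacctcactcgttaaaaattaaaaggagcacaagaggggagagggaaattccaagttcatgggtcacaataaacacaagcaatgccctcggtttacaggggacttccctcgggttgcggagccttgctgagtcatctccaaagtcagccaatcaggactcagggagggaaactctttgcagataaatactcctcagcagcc

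For the other genes that both rose in 5xFAD mice and had an ISRE core match, 30 bases around a match are shown, so that the letters in the open positions of the core and its flanks can be compared. The windows are from the gene's own strand, and capitals mark only the first match in each promoter window. In Bst2, Gbp3, Oas1a and Irgm1 a further match overlaps it, and the rest of that match is in lower case. Their positions and strands in GRCm38.p6 are Bst2 chr8:71537583-71537612 (minus), Eif2ak2 chr17:78882535-78882564 (minus), Ifit3 chr19:34583363-34583392 (plus), Ifit3b chr19:34607759-34607788 (plus), Ifit1 chr19:34640775-34640804 (plus), Gbp2 chr3:142620594-142620623 (plus), Gbp3 chr3:142559989-142560018 (plus), Ifitm3 chr7:141010723-141010752 (minus), Oas1a chr5:120907526-120907555 (minus), Stat2 chr10:128270266-128270295 (plus) and Irgm1 chr11:48871431-48871460 (minus). The match in capitals lies before the start in all of these except Eif2ak2 and Ifitm3, where it begins after the start. Those of Ifit3 and Ifit3b, neighbouring copies on chromosome 19, have identical letters.
Bst2: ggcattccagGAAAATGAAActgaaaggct
Eif2ak2: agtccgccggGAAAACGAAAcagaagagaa
Ifit3: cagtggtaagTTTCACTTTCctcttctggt
Ifit3b: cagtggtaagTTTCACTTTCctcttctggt
Ifit1: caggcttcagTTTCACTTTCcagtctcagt
Gbp2: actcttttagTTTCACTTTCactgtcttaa
Gbp3: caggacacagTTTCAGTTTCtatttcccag
Ifitm3: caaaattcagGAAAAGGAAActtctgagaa
Oas1a: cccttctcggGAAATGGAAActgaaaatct
Stat2: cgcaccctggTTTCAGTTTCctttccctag
Irgm1: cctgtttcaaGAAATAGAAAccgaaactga

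Total counts ran from 16874481 to 22912168 per library. Thy1, whose promoter drives the transgenes, had 1835 to 2205 CPM in 5xFAD-Dp16 and 1542 to 1988 CPM in 5xFAD libraries, against 767 to 1051 CPM in Dp16 and 736 to 880 CPM in WT libraries, so that every transgenic library exceeded every other library. CPM are counts scaled to library size after TMM normalization. Neuron markers summed to 7941 to 10940 CPM, while the summed choroid plexus markers, which do not belong to cortex, ranged from 9.78 to 2295 CPM. The libraries also differ in how expression depends on gene length: the slope of log2 CPM deviation on log2 gene length ran from −0.439 in WT replicate 3 and −0.181 and −0.171 in Dp16 replicates 4 and 3 to 0.281 in WT replicate 1.

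Interferon-stimulated genes were higher in the cortex of 5xFAD mice than in WT mice. Calls rest on edgeR's quasi-likelihood test at an adjusted p under 0.05, with Benjamini-Hochberg adjustment over all 17555 genes. By this rule 24 of the 41 genes rose and 0 fell, against a background of 1.5% of all genes tested that rose and 0.0114% that fell. The number at an unadjusted p under 0.05 was 38 higher and 0 lower, against 5.2% and 1.91% of all genes. All 41 fold changes were above 0, as were 41.2% of all genes, with a median log2 fold change of 1.53 (range 0.04 to 3.93), against a median of −0.06 over all genes tested. The values of the 4 5xFAD and 4 WT libraries did not overlap for 26 of the 41 genes, all of them higher in 5xFAD, against 3.67% (higher) and 1.52% (lower) of all genes. The count was 15 without WT replicate 2, and 8 when the fit held only these 8 libraries.

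**Figure D1:**
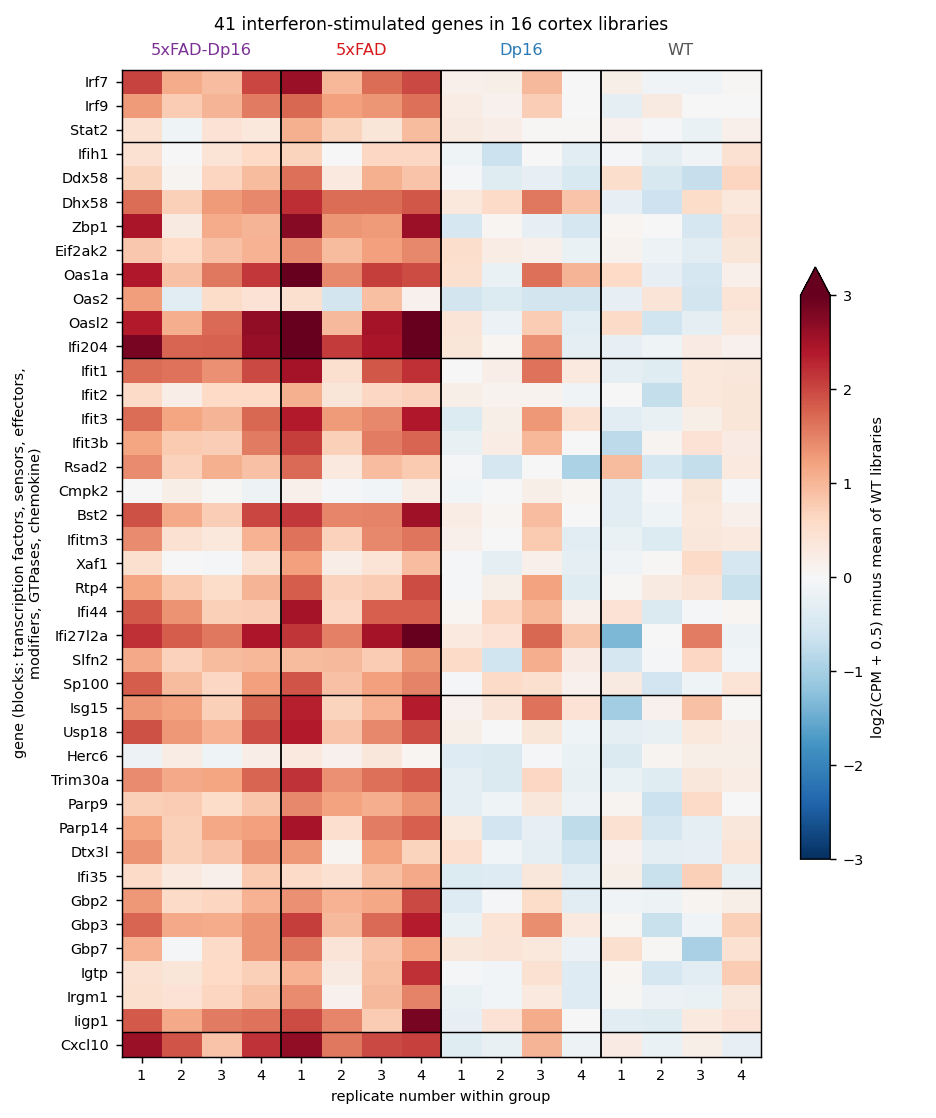
Levels of the 41 genes (rows, in blocks by role) in the 16 libraries (columns, by group and replicate number) as log2(CPM + 0.5) minus the mean of the 4 WT libraries; red is higher and blue lower than WT, and the scale ends at 3. Nearly all rows are red in 5xFAD-Dp16 and 5xFAD columns and pale in Dp16 and WT columns, with replicate 3 as the reddest Dp16 column.

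All 3 transcription factors rose in 5xFAD mice. Irf7, which amplifies the interferon response, had 19.1, 6.07, 9.95 and 12.4 CPM in 5xFAD libraries (replicates 1 to 4), against 3.17, 2.53, 2.54 and 2.87 CPM in WT libraries. Every 5xFAD library was above every WT library, and replicate 2 was the lowest of the 5xFAD group. The log2 fold change was 2.04 ± 0.30 (SE, n = 4 each; edgeR adjusted p = 0.00144). Irf9, the DNA-binding partner of the Stat proteins at ISRE sites, had 28.9, 20.2, 21.7 and 27.5 CPM in 5xFAD libraries, against 6.88, 10.1, 8.33 and 8.41 CPM in WT libraries. Its groups stood apart. The spread of its 5xFAD libraries was narrower than for Irf7 (SD 4.27 against 5.48 CPM), while that of its WT libraries was wider (SD 1.33 against 0.307 CPM). The log2 fold change of Irf9 was 1.53 ± 0.21 (edgeR adjusted p = 0.000927). Stat2, which binds Irf9, had a smaller log2 fold change of 0.80 ± 0.18 (edgeR adjusted p = 0.0364), with 35.3, 26.8, 21.4 and 32.9 CPM in 5xFAD libraries, against 18.2, 15.9, 14.4 and 18.5 CPM in WT libraries.

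Of 9 nucleic acid sensors and related enzymes, 5 rose, with a median log2 fold change of 2.22 over all 9. Ifi204, a member of the Ifi200 family linked to sensing of DNA, had the largest fold change of the 41 genes. It had 10.3, 3.5, 4.58 and 9.04 CPM in 5xFAD libraries, against 0.294, 0.362, 0.604 and 0.517 CPM in WT libraries, so that all 4 5xFAD values exceeded the WT range several times over. Its log2 fold change was 3.93 ± 0.52 (edgeR adjusted p = 0.000724). Oasl2 and Oas1a, of the oligoadenylate synthetase family, rose by 2.97 ± 0.49 and 2.95 ± 0.58 on the log2 scale, Dhx58, which modulates the RNA sensors, by 2.22 ± 0.38, and Eif2ak2, the kinase that halts translation on double-stranded RNA, by 1.36 ± 0.23. The RNA sensors Ifih1 and Ddx58 did not pass, at 0.49 ± 0.23 (edgeR adjusted p = 0.678) and 1.02 ± 0.38 (edgeR adjusted p = 0.444). Zbp1, a sensor of Z-form nucleic acids, had 88, 26, 28 and 84 counts in 5xFAD libraries, against 4, 4, 0 and 10 counts in WT libraries. Its groups did not overlap, but at 3.36 ± 0.87 it missed the threshold in the edgeR test (adjusted p = 0.0815). Oas2 was nearly undetected, with 0 to 20 counts in 5xFAD and 0 to 10 counts in WT libraries.

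Among 14 antiviral effectors, 7 rose, with a median of 1.5 over all 14. Bst2, which tethers virus particles to the cell surface, had 19.1, 11.9, 12.2 and 25.9 CPM in 5xFAD libraries, against 3.06, 3.62, 5.13 and 4.56 CPM in WT libraries. All 5xFAD values were above the WT range, replicates 1 and 4 the most, with a log2 fold change of 2.09 ± 0.34 (edgeR adjusted p = 0.00306). The others that rose were Ifi44 (2.45 ± 0.45), Ifit1 (2.01 ± 0.41), Ifit3 (1.98 ± 0.35) and Ifit3b (1.55 ± 0.33), of a family that binds viral RNA, Sp100 (1.48 ± 0.28), of nuclear bodies, and Ifitm3 (1.39 ± 0.27), which blocks virus entry from endosomes. Ifi27l2a and Rtp4 had comparable fold changes, 2.56 ± 0.63 and 1.52 ± 0.38, but wider spreads between libraries, and did not pass (edgeR adjusted p = 0.0583 and 0.0639). Ifit2 had a log2 fold change of 0.67 ± 0.21, well below those of its neighbours on chromosome 19. Cmpk2, a mitochondrial nucleotide kinase that lies next to Rsad2, had 36.4, 31.2, 30.9 and 38.2 CPM in 5xFAD libraries, against 26.3, 31.9, 42.5 and 32.1 CPM in WT libraries. Its groups overlapped fully and its log2 fold change was 0.04 ± 0.15, while that of its neighbour Rsad2, the antiviral enzyme viperin, was 0.98 ± 0.43 (edgeR adjusted p = 0.628).

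Of 8 genes for ubiquitin-like and ADP-ribosyl modification, 4 rose. Trim30a, a TRIM-family protein that dampens Toll-like receptor signalling, had 14.1, 7.94, 9.65 and 11.2 CPM in 5xFAD libraries, against 2.35, 2.02, 3.62 and 3.29 CPM in WT libraries, which gave a log2 fold change of 1.91 ± 0.27 (edgeR adjusted p = 0.00109). Usp18, which removes Isg15 from proteins and restrains the type I receptor, had 9.15, 2.86, 4.50 and 6.54 CPM in 5xFAD libraries, against 1.00, 1.09, 1.81 and 1.60 CPM in WT libraries. The lowest 5xFAD value, again that of replicate 2, was still above the WT range, and the log2 fold change was 2.03 ± 0.33 (edgeR adjusted p = 0.00356). Parp9 had 14.9, 12.6, 11.5 and 14 CPM in 5xFAD libraries, against 5.52, 3.15, 7.97 and 5.12 CPM in WT libraries, with a log2 fold change of 1.32 ± 0.22 (edgeR adjusted p = 0.00356), and Parp14, another ADP-ribosyltransferase of the same cluster, rose by 1.90 ± 0.43. Usp18 and Parp9 did not pass when the fit held only the 5xFAD and WT libraries (edgeR adjusted p = 0.0882 for each, within 8.45e-07 to 0.0882 for Usp18 and 8.29e-07 to 0.0882 for Parp9 over their alternatives). Isg15, the ubiquitin-like modifier, had 14, 4.04, 5.37 and 14.1 CPM in 5xFAD libraries, against 0.882, 2.64, 4.77 and 2.44 CPM in WT libraries. Its replicates split widely within both groups, which overlapped, and at 1.81 ± 0.50 it did not pass (edgeR adjusted p = 0.115). Herc6, the ligase that attaches Isg15 in mice, had a log2 fold change of 0.19 ± 0.18.

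Of 6 interferon-induced GTPases, which act on membranes around intracellular pathogens, 4 rose: Iigp1 by 2.23 ± 0.48, Gbp3 by 1.86 ± 0.38, Gbp2 by 1.53 ± 0.27 and Irgm1 by 1.11 ± 0.26 on the log2 scale. Gbp7 and Igtp had log2 fold changes of 1.03 ± 0.37 and 1.25 ± 0.38 and did not pass. Cxcl10, a chemokine that attracts T cells, had 4.67, 1.92, 2.71 and 2.85 CPM in 5xFAD libraries, against 0.470, 0.207, 0.423 and 0.188 CPM in WT libraries. The groups were far apart, with a log2 fold change of 3.3 ± 0.51 (edgeR adjusted p = 0.00209). Of the genes with a RefSeq window, 13 of 19 with an ISRE core match rose in 5xFAD mice (median log2 fold change 1.53 over the 19) and 5 of 12 without one (median 0.97), a description with no test.

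**Figure D2:**
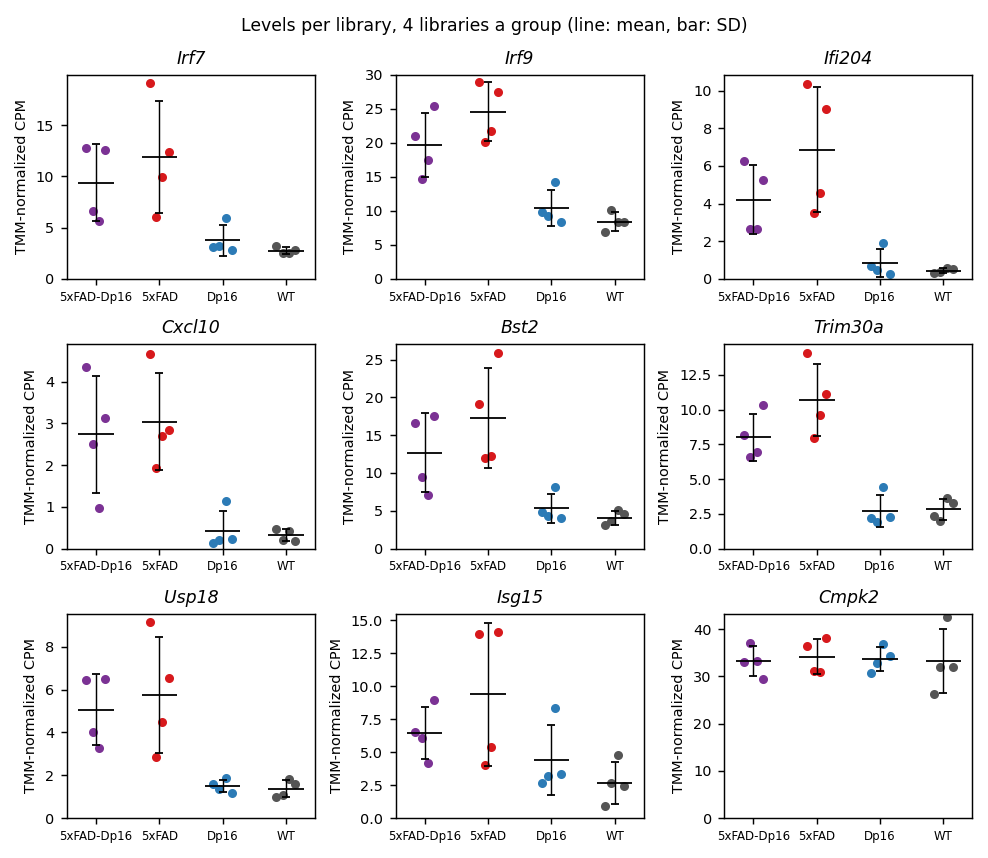
TMM-normalized CPM of 9 of the genes in each library, with 4 points a group and the mean and SD of each group; every axis starts at 0. In 8 panels 5xFAD-Dp16 and 5xFAD libraries lie above most Dp16 and WT libraries, while Cmpk2 is level across the 4 groups.

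Per length, the genes differed widely in level. In WT cortex mean RPKM ran from 0.0677 ± 0.0621 for Oas2 to 14.2 ± 3.26 for Ifitm3 (SD, n = 4), and Cmpk2, whose groups overlapped, had the highest level after Ifitm3. Oas2, Zbp1, Ifi44, Ifi204 and Cxcl10 had the lowest WT levels per length.

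Of the remaining interferon pathway, the receptor subunits gave no call in 5xFAD against WT (0 of 5 tested by edgeR, with 1, Ifnar2, at an unadjusted p under 0.05). Among 10 kinases and signal transducers, 4 rose, including Irf8 (2.05 ± 0.26), a transcription factor of microglia, Irf5 (1.54 ± 0.36) and Irf1 (1.00 ± 0.21). Of 12 sensing adaptors, 2 rose, the endosomal RNA receptor Tlr7 (1.73 ± 0.26) and its transport factor Unc93b1 (1.13 ± 0.24). Of 10 negative regulators, 1 rose, the phosphatase Ptpn6 (2.55 ± 0.31). Of 41 further interferon-induced genes tested, 14 rose, with Lgals3bp at 2.47 ± 0.27 and Gbp6 at 2.59 ± 0.43 among them. The share beside all these counts is the 1.5% of all genes tested that rose in 5xFAD against WT. Messenger RNA of the interferons themselves was almost not sampled: of 13 ligand genes, 12 had no count in any library and Ifng had 3 counts in all. A count of 0 allows up to 3 counts, or 0.131 to 0.181 CPM per library, so expression below this level was not detectable at this depth.

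Microglia markers were higher in the same libraries. Summed CPM of 14 microglia and macrophage markers were 2868, 2567, 3441 and 2497 in 5xFAD libraries, against 834, 781, 1064 and 921 in WT libraries. Of the 14 markers 11 rose, against 1.5% of all genes tested, with a median log2 fold change of 1.51 over the 14. Summed CPM of the 41 genes were 624, 329, 427 and 612 in 5xFAD libraries, against 188, 175, 232 and 234 in WT libraries. The ratio of the sums, interferon-stimulated genes over microglia markers, ran from 0.124 to 0.245 in 5xFAD and from 0.218 to 0.254 in WT libraries. In these bulk samples more cells of a type and more RNA per cell cannot be told apart, and the part of microglia in the rise was not tested. Astrocyte markers were also higher, by less: all 6 log2 fold changes were above 0 with a median of 0.35, 1 (Aqp4, at 0.70 ± 0.17) passed, and the per-library median relative to the WT mean was 0.18 to 0.57 in 5xFAD libraries, against −0.12 to 0.14 in WT libraries. The part of astrocytes was not tested either. Of 6 border macrophage markers 0 passed the edgeR test, also at an unadjusted p under 0.05, and their sums of 6.38 to 8.99 CPM in 5xFAD libraries overlapped those of 5.58 to 6.76 CPM in WT libraries. Of 8 neutrophil and monocyte markers 4 passed the filter and 0 the edgeR test, with 1 at an unadjusted p under 0.05, the monocyte gene Ly6c2, which had 18, 10, 11 and 11 counts in 5xFAD libraries, against 1, 1, 0 and 3 counts in WT libraries. Lymphocyte markers were sparse. Of 10 T and NK cell markers only Cd4 passed the filter, with 6.20 to 15.4 CPM in 5xFAD libraries, against 7.30 to 20.2 CPM in WT libraries. The others had at most 22 counts in any library. Among them Klrb1c had 18, 7, 10 and 0 counts in 5xFAD libraries and 0 counts in every WT library, while Gzma had its highest count, 18, in WT replicate 3. Of 5 B and plasma cell markers none passed the filter.

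**Figure D3:**
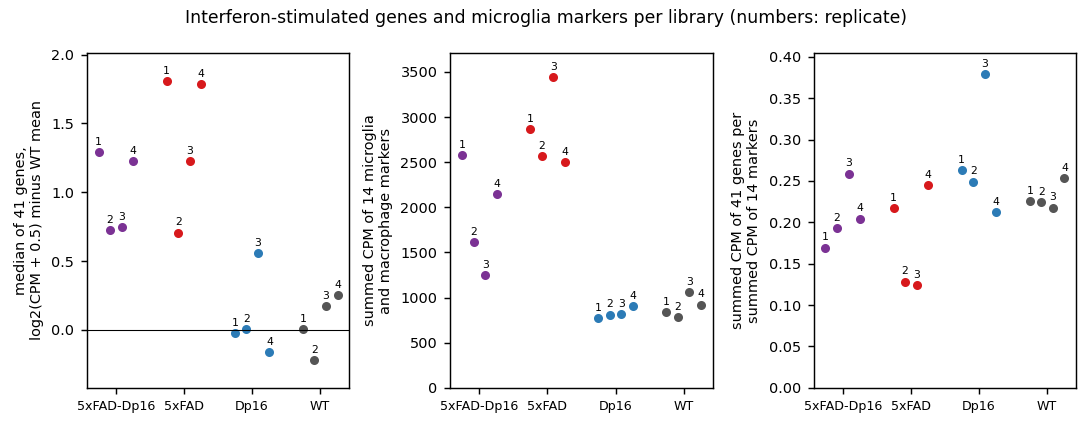
Per library, with replicate numbers: the median over the 41 genes of log2(CPM + 0.5) minus the WT mean, the summed CPM of 14 microglia and macrophage markers, and the ratio of the summed CPM of the 41 genes to that of the markers. Medians are 0.73 to 1.29 in 5xFAD-Dp16 and 0.71 to 1.81 in 5xFAD libraries, and Dp16 replicate 3 has the highest median of its group and the highest ratio of all 16 libraries.

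Interferon-stimulated genes were also higher in mice with both genotypes than in WT mice. The comparison shares its WT libraries with those of 5xFAD and of Dp16 against WT. In 5xFAD-Dp16 against WT, 6 of the 41 genes rose and 0 fell, against a background of 0.496% of all genes that rose and 0.0057% that fell. At an unadjusted p under 0.05, 31 were higher and 0 lower, against 3.65% and 0.877% of all genes. All 41 fold changes were above 0, against 42% of all genes, with a median of 1.13, against −0.04 over all genes. The groups did not overlap for 25 genes, all higher in 5xFAD-Dp16, against 2.34% (higher) and 0.57% (lower) of all genes. The 6 were the transcription factors Irf7 and Irf9, Ifi204, Usp18, Trim30a and Cxcl10, so that none of the 14 antiviral effectors and none of the 6 GTPases passed. The count depended on the fit and on single libraries: it was 22 when the filter was dropped, 21 with a term for the length slope, 17 with DESeq2 and 13 without the 3 libraries of lowest slope, but 1 with only these 8 libraries and 1 without WT replicate 1, 2 without 5xFAD-Dp16 replicate 4, and 3 without 5xFAD-Dp16 replicate 1 or WT replicate 2.

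Cxcl10 had 4.35, 2.51, 0.977 and 3.13 CPM in 5xFAD-Dp16 libraries, against 0.470, 0.207, 0.423 and 0.188 CPM in WT libraries. Replicate 3 was the lowest of the 5xFAD-Dp16 group but still above all WT libraries, and the log2 fold change was 3.08 ± 0.51 (edgeR adjusted p = 0.00991). Ifi204 had 6.28, 2.64, 2.67 and 5.27 CPM in 5xFAD-Dp16 libraries, against 0.294 to 0.604 CPM in WT libraries, with a log2 fold change of 3.13 ± 0.52 (edgeR adjusted p = 0.00991). Irf9 had 21.0, 14.6, 17.4 and 25.4 CPM in 5xFAD-Dp16 libraries, against 6.88 to 10.1 CPM in WT libraries, with a log2 fold change of 1.19 ± 0.21 (edgeR adjusted p = 0.0150). Irf7 had 12.8, 6.62, 5.66 and 12.6 CPM in 5xFAD-Dp16 libraries, against 2.53 to 3.17 CPM in WT libraries, with a log2 fold change of 1.67 ± 0.30 (edgeR adjusted p = 0.0163). In Ifi204, Irf9 and Irf7 the libraries of replicates 1 and 4, both from females, were the higher pair of the group. Each of the 3 lost its call without WT replicate 1, Irf9 and Irf7 also without 5xFAD-Dp16 replicate 1 or 4, and Irf7 without WT replicate 2. Over all alternatives the adjusted p ran from 1.56e-11 to 0.058 for Ifi204, from 2.89e-05 to 0.172 for Irf9, from 4.71e-06 to 0.1 for Irf7 and from 2.42e-07 to 0.0592 for Cxcl10.

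**Figure D4:**
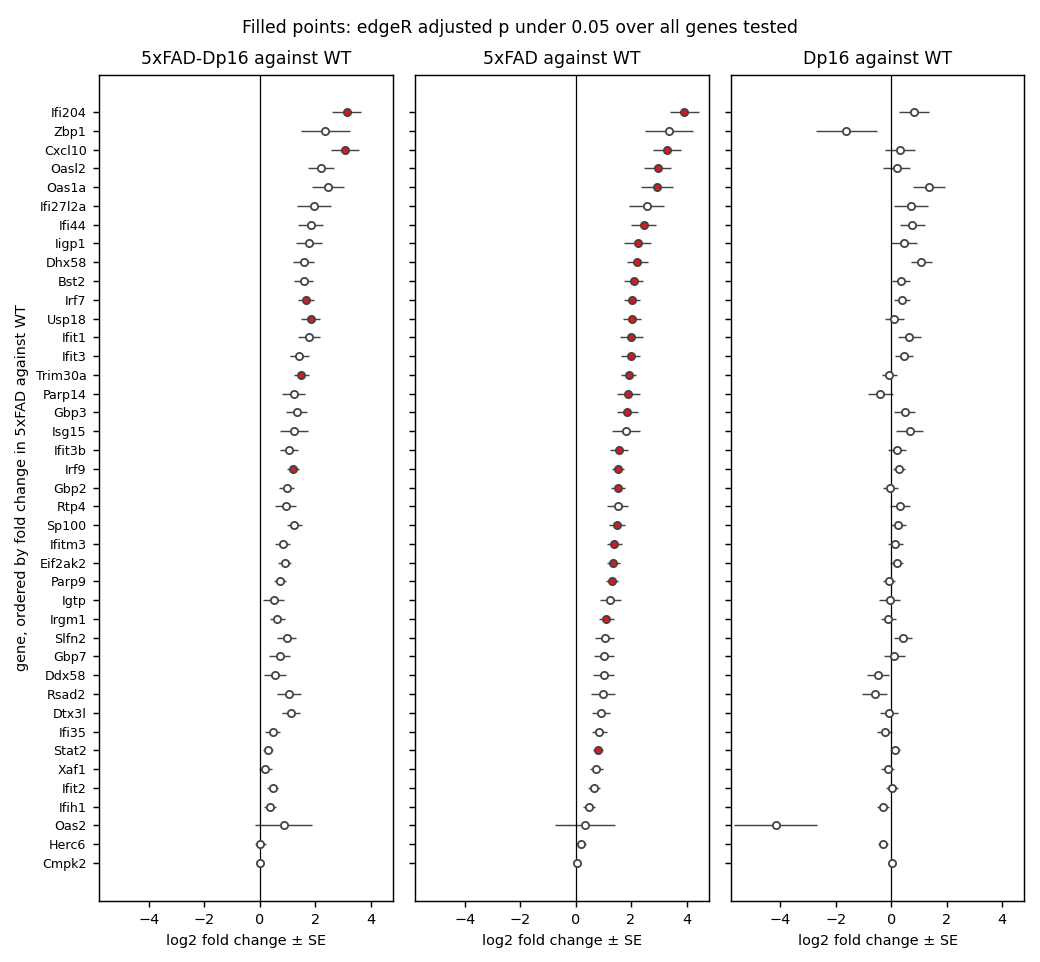
log2 fold change ± SE of the 41 genes in 5xFAD-Dp16 against WT, 5xFAD against WT and Dp16 against WT, ordered by the fold change in 5xFAD; filled points passed the edgeR test over all genes. The points of the 5xFAD-Dp16 and 5xFAD panels lie to the right of 0 (6 and 24 filled), while those of the Dp16 panel scatter on both sides with 0 filled.

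With the duplication alone, no interferon-stimulated gene passed the test, as held for nearly all genes. Of all 17555 genes tested by edgeR 1 passed, so 0 calls among the 41 do not show the absence of a change. In Dp16 against WT, 0 of 41 genes were called in either direction by edgeR, 0 by DESeq2 and 0 by limma-trend, against a background of 0.0057% of all genes that rose and 0% that fell. At an unadjusted p under 0.05, 2 genes were higher and 1 lower, against 1.29% and 0.906% of all genes. The median log2 fold change was 0.14, against −0.03 over all genes, with 26 of 41 above 0, against 42.9% of all genes, and in 0 of 41 genes did the groups stand apart without overlap, against 0.98% (higher) and 0.575% (lower) of all genes. Without Dp16 replicate 3 the median was 0.07, with 22 of 41 above 0.

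Dhx58 had the smallest p, with 1.36, 1.74, 3.97 and 2.19 CPM in Dp16 libraries, against 0.764, 0.465, 1.69 and 1.36 CPM in WT libraries. The groups overlapped at their ends, and the log2 fold change was 1.08 ± 0.38 (unadjusted p = 0.0115; edgeR adjusted p = 0.9998). Oas1a had 0.832, 0.337, 2.53 and 1.46 CPM in Dp16 libraries, against 0.940, 0.310, 0.181 and 0.564 CPM in WT libraries. Its log2 fold change was 1.36 ± 0.58 (edgeR adjusted p = 0.9998), but 1.04 ± 0.65 without Dp16 replicate 3. Ifi44 had 0.569, 1.11, 1.54 and 0.638 CPM in Dp16 libraries, against 0.882, 0.258, 0.483 and 0.564 CPM in WT libraries, with a log2 fold change of 0.76 ± 0.46. Oas2, the 1 gene lower at an unadjusted p under 0.05, had 0, 1, 0 and 0 counts in Dp16 libraries, against 2, 9, 0 and 10 counts in WT libraries, too few for a fold change to be given.

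A single library held most of the higher values in the Dp16 group. Replicate 3 was the highest of the 4 Dp16 libraries for 31 of the 41 genes, while it was the highest for 27.3% of all genes tested. Its summed CPM of the 41 genes was 308, against 203, 202 and 193 in Dp16 replicates 1, 2 and 4, and 175 to 234 in WT libraries. Isg15 had 8.34 CPM in replicate 3, against 2.63, 3.23 and 3.37 CPM in the other Dp16 libraries, and Ifit1 had 9.87 CPM, against 2.80, 3.33 and 3.60 CPM. Its microglia markers summed to 812 CPM, within the range of the group (770 to 908), its choroid plexus markers to 9.78 CPM, the lowest of all libraries, its border macrophage markers to 9.18 CPM, the highest of all libraries and against 4.46, 5.06 and 6.33 CPM in the other Dp16 libraries, and its oligodendrocyte markers to 5240 CPM, the lowest of all libraries. Its length slope was −0.171, beside −0.181 in Dp16 replicate 4, whose median over the 41 genes was −0.16. The part of these in the values of replicate 3 was not tested.

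Among mice with the amyloid transgenes, most of the genes had lower values with the duplication, but none passed the test. Here too edgeR called only 1 of all 17555 genes, so 0 calls among the 41 do not show the absence of a change. In 5xFAD-Dp16 against 5xFAD, edgeR, DESeq2 and limma-trend each called 0 of 41 genes in either direction, against a background of 0.0057% of all genes that rose and 0% that fell. At an unadjusted p under 0.05, 0 genes were higher and 5 lower, against 1.63% and 1.97% of all genes. The fold changes lay mostly below 0, in 38 of 41 genes, with 3 of 41 above 0, against 50.9% of all genes. The median was −0.48, against 0.01 over all genes. The median was −0.21 without 5xFAD replicate 4 and −0.39 without 5xFAD replicate 1, the pair of 5xFAD libraries with the highest levels.

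Stat2 had 22.9, 15.3, 22.5 and 20.8 CPM in 5xFAD-Dp16 libraries, against 35.3, 26.8, 21.4 and 32.9 CPM in 5xFAD libraries. Only 5xFAD replicate 3 lay within the range of the 5xFAD-Dp16 group, and the log2 fold change was −0.51 ± 0.18 (unadjusted p = 0.0115; edgeR adjusted p = 0.9997). Parp9 had 8.79, 9.08, 7.87 and 9.69 CPM in 5xFAD-Dp16 libraries, against 14.9, 12.6, 11.5 and 14 CPM in 5xFAD libraries. It was the 1 gene of the 41 whose groups did not overlap, against 1.73% (higher) and 1.48% (lower) of all genes, at −0.59 ± 0.21 (edgeR adjusted p = 0.9997). Xaf1, a proapoptotic protein induced by interferon, had 10.2, 7.12, 6.94 and 9.99 CPM in 5xFAD-Dp16 libraries, against 17.4, 8.33, 9.69 and 14.1 CPM in 5xFAD libraries, and Ifitm3 had 27.0, 13.5, 12.2 and 20.6 CPM in 5xFAD-Dp16 libraries, against 31.3, 16.1, 27.4 and 30.9 CPM in 5xFAD libraries. Their groups overlapped, with log2 fold changes of −0.55 ± 0.24 and −0.57 ± 0.26.

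Microglia and astrocyte markers also had lower values. Microglia markers summed to 2580, 1618, 1250 and 2145 CPM in 5xFAD-Dp16 libraries, against 2868, 2567, 3441 and 2497 CPM in 5xFAD libraries, with all 14 fold changes below 0, a median of −0.54 and 0 called by edgeR, while 10 were lower at an unadjusted p under 0.05. Astrocyte markers summed to 3984, 4304, 3711 and 3870 CPM in 5xFAD-Dp16 libraries, against 4527, 5110, 5064 and 4401 CPM in 5xFAD libraries. The astrocyte sums did not overlap, while the microglia sums did, and all 6 astrocyte fold changes were below 0 with a median of −0.31, 0 called by edgeR and 2 lower at an unadjusted p under 0.05. Summed CPM of the 41 genes were 437, 312, 323 and 439 in 5xFAD-Dp16 libraries, against 624, 329, 427 and 612 in 5xFAD libraries, and the ratio of both sums was 0.170 to 0.259 in 5xFAD-Dp16 and 0.124 to 0.245 in 5xFAD libraries. Choroid plexus markers had a median log2 fold change of 2.09 in the same comparison, with sums of 792, 14, 36.6 and 2295 CPM in 5xFAD-Dp16 libraries, against 21.2, 39.2, 18.8 and 632 CPM in 5xFAD libraries. The part of microglia and astrocytes in the lower values was not tested. With the choroid plexus level as a covariate, added after the data were seen, the median over the 41 genes was −0.49, against −0.48 without it.

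The receptor genes themselves were higher with the duplication. In the Dp16 effect pooled over both backgrounds (the mean of 5xFAD-Dp16 minus 5xFAD and Dp16 minus WT) Ifnar1 rose by 0.63 ± 0.10 (edgeR adjusted p = 0.0160) and Ifngr2 by 0.66 ± 0.12 (edgeR adjusted p = 0.0408) on the log2 scale. Ifnar2 was at 0.60 ± 0.13 and Il10rb at 0.49 ± 0.10, and neither passed. Ifnar1 had 52.6, 50.5, 55.6 and 53.5 CPM in 5xFAD-Dp16 and 53.6, 45.6, 44.8 and 49.9 CPM in Dp16 libraries, against 31.9, 34.0, 34.9 and 35.3 CPM in 5xFAD and 32.1, 32.5, 22.7 and 38.9 CPM in WT libraries. All 8 libraries with the duplication were above all 8 without it. Ifngr1, on chromosome 10 outside the duplication, was at −0.04 ± 0.12. In the same pooled contrast 0 of the 41 interferon-stimulated genes were called by edgeR, 0 by DESeq2 and 0 by limma-trend, against a background of 0.0854% of all genes that rose and 0.0114% that fell. At an unadjusted p under 0.05, 0 were higher and 1 lower, against 2.02% and 2.27% of all genes. The median was −0.10, against −0.02 over all genes, with 12 of 41 above 0, against 46.3% of all genes. The 8 libraries with and the 8 without the duplication overlapped for all 41 genes, against 0.125% (higher) and 0.0114% (lower) of all genes that did not. Parp9 had the smallest p, at −0.34 ± 0.15 (unadjusted p = 0.0384), followed by the sparsely counted Oas2, Xaf1 at −0.34 ± 0.17 and Zbp1 at −1.32 ± 0.68. For Irf7 the pooled Dp16 effect was 0.00 ± 0.19 and for Irf9 −0.03 ± 0.15, values that do not show the absence of a change within their error.

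**Figure D5:**
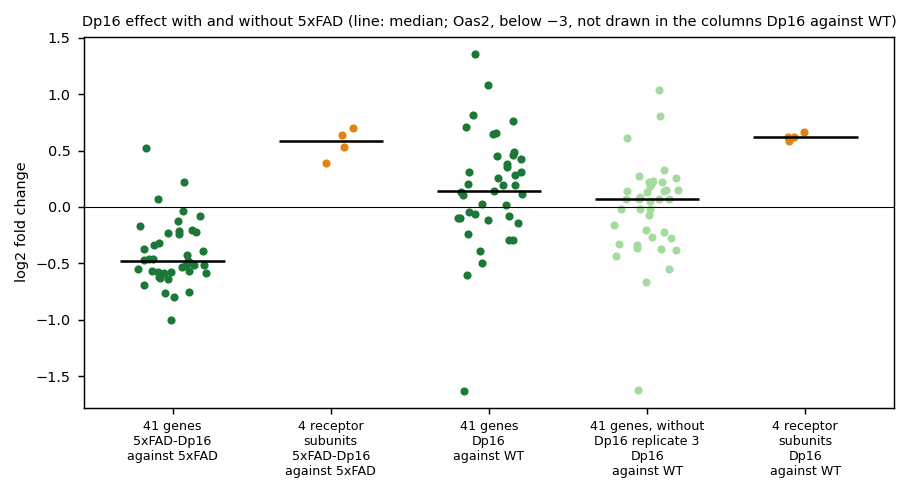
log2 fold changes of the 41 genes and of the 4 receptor subunits in the duplicated segment in 5xFAD-Dp16 against 5xFAD and in Dp16 against WT, the comparison with WT also without Dp16 replicate 3; each point is a gene and the line the median. Oas2 is not drawn in the columns of Dp16 against WT but counts in their medians. The receptor subunits lie between 0.39 and 0.70, and the medians of the 41 genes are −0.48 in 5xFAD-Dp16 against 5xFAD, 0.14 in Dp16 against WT and 0.07 without Dp16 replicate 3.

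Within the duplicated segment lie Mx1 and Mx2, of a family of interferon-induced antiviral GTPases. These genes are not among the 41, and their copy number also differs. Whether they make working protein in these mice was not measured. Mx1 had 3.59, 1.39, 1.08 and 3.13 CPM in 5xFAD-Dp16, 2.91, 1.23, 1.62 and 2.99 CPM in 5xFAD and 0.525, 0.386, 1.24 and 0.638 CPM in Dp16 libraries, against 0.118, 0.207, 0.604 and 0.188 CPM in WT libraries. It rose by 2.96 ± 0.53 in 5xFAD-Dp16 (edgeR adjusted p = 0.0165) and by 3.03 ± 0.53 in 5xFAD (edgeR adjusted p = 0.00594), both against WT. In Dp16 against WT Mx1 was at 1.34 ± 0.55 and Mx2 at 0.86 ± 0.62, and neither passed (edgeR adjusted p = 0.9998 for both). Mx2, named after its values were seen, was at 1.68 ± 0.62 in 5xFAD-Dp16 and 1.42 ± 0.62 in 5xFAD, both against WT, and did not pass.

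Against the Dp16 group, the transgenes went with higher interferon-stimulated genes as well. In 5xFAD-Dp16 against Dp16, 3 of 41 genes rose and 0 fell, against a background of 0.387% of all genes that rose and 0% that fell. Higher at an unadjusted p under 0.05 were 28 genes, and lower 0, against 3.18% and 0.741% of all genes. The median log2 fold change was 0.96, against 0.01 over all genes, and 40 of 41 were above 0, against 51.2% of all genes. The groups did not overlap for 19 genes, all higher in 5xFAD-Dp16, against 2.21% (higher) and 0.877% (lower) of all genes. Trim30a had 8.16, 6.62, 6.94 and 10.3 CPM in 5xFAD-Dp16 libraries, against 2.19, 1.93, 4.47 and 2.28 CPM in Dp16 libraries, with a log2 fold change of 1.56 ± 0.27 (edgeR adjusted p = 0.0143). Usp18 had 6.46, 4.03, 3.29 and 6.51 CPM in 5xFAD-Dp16 libraries, against 1.58, 1.35, 1.89 and 1.19 CPM in Dp16 libraries, with a log2 fold change of 1.72 ± 0.33 (edgeR adjusted p = 0.0299). For both genes the lowest 5xFAD-Dp16 library was above the highest Dp16 library. Cxcl10 had 4.35, 2.51, 0.977 and 3.13 CPM in 5xFAD-Dp16 libraries, against 0.131, 0.193, 1.14 and 0.228 CPM in Dp16 libraries. Dp16 replicate 3 exceeded 5xFAD-Dp16 replicate 3, so the groups overlapped, and the log2 fold change was 2.77 ± 0.49 (edgeR adjusted p = 0.0175). Ifi204 had 6.28, 2.64, 2.67 and 5.27 CPM in 5xFAD-Dp16 libraries, against 0.700, 0.482, 1.94 and 0.273 CPM in Dp16 libraries, and missed the threshold at 2.31 ± 0.48 (edgeR adjusted p = 0.0516), but passed without Dp16 replicate 3 (adjusted p = 0.0276, within 3.96e-07 to 0.248 over its alternatives).

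The count of 3 was 18 when the filter was dropped, 15 with DESeq2, 12 with a term for the length slope and 9 without WT replicate 3, and 1 when only these 8 libraries were fitted. It was 0 without 5xFAD-Dp16 replicate 1 or Dp16 replicate 2 or 4, and 1 without 5xFAD-Dp16 replicate 2 or 4 or Dp16 replicate 1. Trim30a lost its call without 5xFAD-Dp16 replicate 1 or 4 or Dp16 replicate 1, 2 or 4 (adjusted p 7.07e-06 to 0.0791 over its alternatives), Cxcl10 without 5xFAD-Dp16 replicate 1 or 2 or Dp16 replicate 1, 2 or 4 (2.39e-06 to 0.104), and Usp18 without 5xFAD-Dp16 replicate 1, 2 or 4, any single Dp16 library or WT replicate 2 (0.00016 to 0.208). Pooled over both backgrounds, with 8 libraries carrying the transgenes and 8 not, 28 of 41 genes rose, against a background of 2.18% of all genes that rose and 0% that fell. Without adjustment, 39 were higher and 0 lower at p under 0.05, against 5.99% and 2.48% of all genes. All 41 were above 0, against 45.8% of all genes, with a median of 1.24, and 9 did not overlap between the libraries with and without the transgenes, all higher with them, against 0.826% (higher) and 0% (lower) of all genes. Rsad2, Rtp4, Ifi27l2a, Dtx3l and Zbp1, which missed the threshold in 5xFAD against WT, passed in this effect, with Zbp1 at 3.67 ± 0.66 (edgeR adjusted p = 0.00412). Stat2 passed in 5xFAD against WT and missed the threshold here, at 0.48 ± 0.13 (edgeR adjusted p = 0.0734).

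Whether the transgene effect differs with the duplication was tested by the interaction, (5xFAD-Dp16 minus Dp16) minus (5xFAD minus WT). Of the 41 genes, 0 passed with edgeR, 0 with DESeq2 and 0 with limma-trend, as did 0% of all genes tested with edgeR in either direction. At an unadjusted p under 0.05, 1 gene was higher and 7 were lower, against 0.433% and 0.929% of all genes, and the median was −0.54, against 0.04 over all genes, with 7 of 41 above 0, against 57.1% of all genes. Dhx58 had the smallest p, at −1.72 ± 0.51 (unadjusted p = 0.00429; edgeR adjusted p = 1), with 4.31, 1.97, 3.14 and 3.58 CPM in 5xFAD-Dp16 libraries, 1.36, 1.74, 3.97 and 2.19 CPM in Dp16 libraries, 6.38, 4.24, 4.23 and 4.96 CPM in 5xFAD libraries and 0.764, 0.465, 1.69 and 1.36 CPM in WT libraries. The 5xFAD-Dp16 values overlapped those of Dp16 libraries, while all 5xFAD values were above all WT values. Stat2 followed at −0.64 ± 0.25 and Oas1a at −1.85 ± 0.77, while Oas2, the 1 gene in the other direction, rested on 0 to 28 counts per library. The transgene effect was thus not shown to differ with the duplication for any of the 41 genes, although 6 genes were called in 5xFAD-Dp16 and 24 in 5xFAD, both against WT.

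Within groups the genes kept together from library to library. Deviations from the group mean over the 16 libraries had a mean pairwise Pearson correlation of 0.462 among the 41 genes, with 769 of 820 pairs above 0, against a mean of 0.00 over all genes tested. The libraries share their depth, dissection and length slope across all these pairs, so this is a description. Ifi204 followed the mean of the other members most closely (r = 0.942), then Irf7 (0.917), Ifitm3 (0.907) and Usp18 (0.899), and 34 of 41 were above 0.5. The lowest were Herc6 (0.182), Cmpk2 (0.291) and the sparsely counted Oas2 (0.382).

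In the 5xFAD group, replicate 2 was the lowest library for 33 of the 41 genes, and replicates 1 and 4 were the highest for 25 and 14. The medians over the 41 genes, relative to the WT mean, were 1.81, 0.71, 1.22 and 1.79 in 5xFAD replicates 1 to 4, an order that the summed microglia markers did not share: replicate 3 had the highest marker sum, 3441 CPM. In the 5xFAD-Dp16 group the medians were 1.29, 0.73, 0.75 and 1.23. Here both females were above both males for 29 of the 41 genes, against 16.4% of all genes, and their choroid plexus sums of 792 and 2295 CPM and microglia sums of 2580 and 2145 CPM were also above those of the males (14 and 36.6 CPM, 1618 and 1250 CPM), so sex and these markers cannot be told apart in this group. In the other groups females were above males for 8 (5xFAD), 11 (Dp16) and 3 (WT) of 41 genes, against 29.3%, 9.43% and 7.01% of all genes.

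The 5xFAD effect in females minus that in males, pooled over both backgrounds, gave 0 calls among the 41 genes with edgeR, DESeq2 and limma-trend and 0% among all genes with edgeR, with 1 gene higher and 0 lower at an unadjusted p under 0.05, against 2.26% and 2.31% of all genes. That gene was Dtx3l, the ubiquitin ligase partner of Parp9, at 1.00 ± 0.41 (edgeR adjusted p = 0.634). It had 9.69 and 9.69 CPM in female and 6.00 and 6.69 CPM in male 5xFAD-Dp16 mice, 9.38 and 8.77 CPM in female and 3.70 and 5.88 CPM in male 5xFAD mice, 3.28 and 2.73 CPM in female and 5.16 and 2.14 CPM in male Dp16 mice, and 3.88 and 2.84 CPM in female and 2.74 and 4.84 CPM in male WT mice. Females were above males in both transgenic groups, with overlap in the groups without the transgenes. Parp9, Ddx58 and Gbp7 followed at −0.48 ± 0.30, 0.82 ± 0.55 and 0.75 ± 0.51, and the last 2 changed sign with the replicate number as a block.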

How the data were processed

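Polyadenylated RNA of brain cortex from 16 mice was made into strand-specific libraries with a Tecan/Nugen kit, per the labels' protocols. Reads were handled with HTSeq 0.6.1, HISAT2 2.1.0, SAMtools 1.5, FastQC 0.11.5 and bcl2fastq on GRCm38, per the submitters' processing notes, which do not say whether strand was used in counting. The authors deposited raw read counts per gene, without normalization, and RPKM values (reads scaled to gene length and library size), as the files' own titles name them. Columns were matched to samples by title.

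Counts were tested with edgeR 4.0.16 (quasi-likelihood, TMM, low-count filter with a minimum count of 10, sex as covariate, all 16 libraries in one fit; R 4.3.3), adjusted over 17555 genes. Standard errors derive from the F statistic. The test was checked on simulated data, where it missed most changes of 1.5-fold and of 2-fold. Replicates differed beyond sampling noise (chi-square per degree of freedom 17.3 to 305). Alternatives were DESeq2 1.42.0, RLE factors, no filter, no sex term, a replicate block, 2-group fits, leaving out each library, limma-trend (limma 3.58.1) on log2(RPKM + 0.1) and log2(RPKM + 1), the length slope as a covariate, and leaving out the 3 lowest-slope libraries.

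Genes given in full are the 8 of smallest p in 5xFAD against WT and the 4 of smallest p in each other contrast, besides the pooled 5xFAD effect, with a further few named by role. Of other pathway genes, taken from lists, some that were called are named; not all are reported here. Members and lists were chosen with earlier results of these data known. Gene positions are from GENCODE M21, not the M24 release that the files' titles name, and promoters from RefSeq (GRCm38.p6).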

Additional observations from a re-analysis of the deposited data

Results flagged for a closer look

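In each group of 4 libraries, the level of every gene of the 41 and 2 summaries over them were checked for a library whose gap to the nearest other, divided by the group's range, exceeded Dixon's critical value for 4 samples. Of 172 such checks 12 stood out, where chance gives about 1 in 20 (8.6). The checks are not independent, since the genes varied together (mean pairwise correlation 0.462) and the summaries hold the same genes. The 12 can therefore not be weighed against 8.6.

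In the Dp16 group, replicate 3 stood above the other 3 libraries for Irf7 (5.95 CPM, others 2.78 to 3.18 CPM), Ifit1 (9.87 CPM, others 2.80 to 3.60 CPM), Isg15 (8.34 CPM, others 2.63 to 3.37 CPM), Trim30a (4.47 CPM, others 1.93 to 2.28 CPM), Ifi35 (5.11 CPM, others 2.80 to 3.05 CPM) and Cxcl10 (1.14 CPM, others 0.131 to 0.228 CPM). Its summed CPM of the 41 genes was 308, against 193 to 203 in the other Dp16 libraries. In the same group Gbp7 was low in replicate 4 (2.92 CPM, others 4.27 to 4.53 CPM), and Oas2 had 0.0482 CPM, a single count, in replicate 2 and 0 in the others.

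In the 5xFAD-Dp16 group, replicate 2 was low for Ifit2 (12.2 CPM, others 16 to 16.3 CPM) and Parp14 (3.09 CPM, others 4.32 to 4.57 CPM). In the 5xFAD group, replicate 2 was low for Ifih1 (8.58 CPM, others 13.3 to 13.9 CPM).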

How the results depend on the processing

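In 5xFAD against WT (24 of 41 genes called) the count was 8 when only the 2 groups were fitted and 15 to 25 with each library left out. In 5xFAD-Dp16 against WT (6) the counts were 17 with DESeq2, 22 with no low-count filter, 1 with only the 2 groups, 21 with the length slope, 13 without the 3 libraries of lowest slope, and 1 to 8 with each library left out. In 5xFAD-Dp16 against Dp16 (3) they were 15, 18, 1 and 12 for the first 4 of these settings, and 0 to 9 with each library left out. The pooled 5xFAD effect (28) gave 24 to 31 with each library left out, and the sex difference of the 5xFAD effect (0) gave 0 to 1 (Gbp7, without WT replicate 1). Dp16 against WT, 5xFAD-Dp16 against 5xFAD, the pooled Dp16 effect and the interaction gave 0 members under every alternative run. The cause of these differences was not tested, except that fits of only the 2 groups hold fewer samples. Among values of single members, 900 kept direction and side of the threshold, 38 lost their call, 11 gained one and 2 changed sign, all under the listed alternatives.

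Correlations of same-numbered libraries ran from −0.454 to 0.657, with 10 of 24 above 0.1. Replicate 1 of WT correlated at 0.657 with that of Dp16 and 0.588 with that of 5xFAD, but 0.128 with that of 5xFAD-Dp16. Libraries of different number were not compared, so whether the numbers pair the libraries was not tested. Same-numbered libraries were not all of the same sex: replicate 1 was male in Dp16 and female in WT, 5xFAD and 5xFAD-Dp16. With the replicate block the counts were 24, 7, 3 and 30 for 5xFAD against WT, 5xFAD-Dp16 against WT, 5xFAD-Dp16 against Dp16 and the pooled 5xFAD effect, and 0 elsewhere; the sex difference became −0.19 for Ddx58 and −0.10 for Gbp7. The choroid plexus covariate, chosen after seeing the data, gave 22, 6, 2 and 27. The sex difference was not run without the sex term, with only 2 groups or without the 3 libraries, and pooled contrasts were not run with only 2 groups. Low counts limit Oas2 and Zbp1.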
